A study of Mus musculus with 12 samples.

Results

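White adipose tissue can be separated into adipocytes and the mixed cells around them, and each of these fractions can differ between depots in its own way. The contrast described here asked, gene by gene, whether the difference between inguinal adipose tissue (IAT) and epididymal adipose tissue (EAT) was the same in adipocytes as in stromal vascular cells (SVCs). For each gene the IAT minus EAT difference in SVCs was subtracted from the IAT minus EAT difference in adipocytes, on log2(FPKM + 1), and the result is called the interaction. FPKM counts the fragments of a gene relative to its transcript length and to the size of the library. A positive interaction means that the gene stood relatively higher in IAT when measured in adipocytes than when measured in SVCs, and a negative one means the opposite. Genes were taken where at least 1 of the groups of each fraction had a mean of 5 FPKM or more, which held for 6605 of the 24881 gene models in the tables.

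All 12 libraries came from male C57BL/6J mice aged 18 weeks, which the series title describes as fed normal chow. No treatment was given and no transgene is named. Collagenase I had been used to separate the fractions, and each combination of depot and fraction was sequenced in 3 libraries. Whether a library held 1 mouse or a pool is not stated in the labels, so p-values here measure the spread between libraries, which may be technical.

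EAT is a visceral depot beside the testis and IAT a subcutaneous depot of the flank. Adipocytes store triglyceride, release fatty acids by lipolysis and secrete hormones such as adiponectin. The SVC fraction holds fibroblasts and adipocyte progenitors, endothelial and mural cells, macrophages and lymphocytes, and in visceral depots also mesothelial cells of the serous surface. Collagenase digestion takes time at body temperature, during which immediate early and stress genes can respond.

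An estimated 14.1 M to 24.6 M fragments stood behind the gene values of a library. The deposited confidence limits were, in the median, 8.78% to 11.2% away from values near 5 FPKM and 3.03% to 4.20% away near 100 FPKM, which covers counting error only. Libraries of a group correlated with each other at r = 0.982 or more across genes, which are not independent replicates, and the lowest value was that of EAT adipocyte replicates 1 and 2. The summed level of 14 adipocyte genes held by no other marker list was 39150.0 to 47414 FPKM in EAT adipocytes and 42226 to 46275 FPKM in IAT adipocytes, against 211 to 233 and 439 to 487 FPKM in the SVCs, so the fractions carried their labels. Each fraction also held transcripts of marker lists of the other. Relative to adipocytes, SVCs held the adipocyte genes at 0.342% (median) in EAT and 1.20% in IAT. Relative to SVCs, adipocytes held macrophage genes at 12.8% (median) in EAT and 4.44% in IAT. The same measure was 17.4% and 19.1% for endothelial genes and 6.16% and 5.65% for fibroblast genes. Single genes lay far above these medians. In EAT and IAT the highest was 46.1% and 56.2% for adipocyte genes and 63.4% and 44.1% for macrophage genes. It was 445% and 316% for endothelial genes and 92.8% and 124% for fibroblast genes. The part of carried-over cells in these levels was not tested.

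The depot difference was not the same in both fractions for 1760 of the 6605 genes, at an adjusted p under 0.05 in limma (26.6%, against 32.5% of all 13175 features tested). The interaction was positive for 748 of them (11.3%, against 14.7% of all features) and negative for 1012 (15.3%, against 17.8%). That split depended on the scaling: rescaling each library to TPM gave 817 positive and 732 negative calls, a positive share of 52.7% in place of 42.5%. Of the 1760 genes, 311 differed at least 2-fold (4.71%, against 7.07% of all features). In adipocytes alone 2552 of the genes differed between depots (38.6%, against 37.6% of all features). Of these, 708 were higher (10.7%, against 10.3%) and 1844 lower in IAT (27.9%, against 27.3%). In SVCs alone 2294 differed (34.7%, against 40.2% of all features). Of these, 739 were higher (11.2%, against 14.0%) and 1555 lower in IAT (23.5%, against 26.2%). Median-of-ratios scaling moved the median adipocyte difference from -0.11 to 0.027, so the excess of genes lower in IAT is relative to the scaling of FPKM. Leaving out EAT adipocyte replicate 1 raised the interaction calls to 2480, and leaving out IAT adipocyte replicate 3 lowered them to 1367.

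Across the 6605 genes the depot differences of the fractions, which share no library, correlated at Pearson's r = 0.417 (Spearman's rho 0.326), and 63.0% had the same sign. This is across genes and describes the libraries only. The plot of the depot difference in one fraction against the other shows that the called genes lie on both sides of the line of equal difference.

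**Figure D1:**
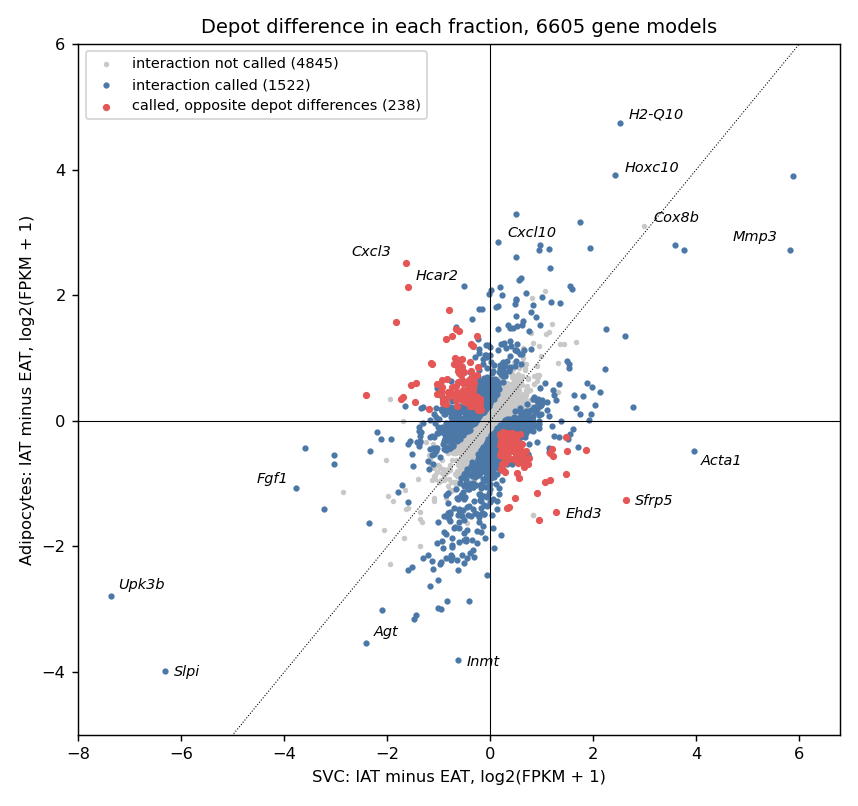
Each point is 1 of 6605 gene models, placed by its IAT minus EAT difference in SVCs (horizontal) and in adipocytes (vertical), both on log2(FPKM + 1); the dotted line marks equal differences. Grey points are not called in the interaction, blue points are called, and the 238 red points are called with opposite depot differences in the fractions.

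The 1760 genes fell into several patterns. In 450 genes (6.81%, against 7.0% of all features tested) IAT adipocytes were lower than EAT adipocytes with no call in SVCs. In 203 genes (3.07%, against 2.8%) IAT adipocytes were higher with no call in SVCs. In 291 genes (4.41%, against 7.21%) IAT SVCs were lower with no call in adipocytes. In 235 genes (3.56%, against 5.56%) IAT SVCs were higher with no call in adipocytes. Both fractions differed in the same direction but by unequal amounts in 267 genes (4.04%, against 5.21%). These were 126 lower and 28 higher in IAT with a negative interaction, 58 lower and 55 higher with a positive one. For 76 genes (1.15%, against 1.18%) neither depot difference was called on its own. In 238 genes (3.6%, against 3.53% of all features tested) the depots stood in opposite order in the fractions, with all 3 tests called. The larger of the absolute depot differences was in adipocytes for 1003 genes and in SVCs for 757. It was in adipocytes for 678 of the 1012 genes with a negative interaction and 325 of the 748 with a positive one. This count was made with FPKM as deposited, not with other scalings or over all features. Because SVCs are a mixture, fewer cells of a type and less RNA per cell cannot be told apart in any of these values.

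Calls were also counted by how far the level of a gene differed between the fractions. Among the 6039 genes whose levels in the fractions lay within 5-fold of each other, 1479 were called (24.5%, against 26.6% of the 6605 and 32.5% of all features). Of the 232 genes over 5-fold higher in adipocytes 46.1% were called, and of the 334 genes over 5-fold higher in SVCs 52.1%, most of them with a negative interaction (37.4% of the 334).

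Genes that were higher in IAT in adipocytes and lower in IAT in SVCs numbered 118 (1.79%, against 1.62% of all features tested). They included chemokines that attract neutrophils, a receptor that restrains lipolysis and transcription factors of the immediate early class. Cxcl1 (chr5:90891245-90893115), a ligand of the neutrophil receptor CXCR2, stood at 315, 235 and 259.7 FPKM in EAT adipocytes and 1012, 854 and 875 in IAT adipocytes. SVCs held 1025, 995 and 1108 FPKM in EAT and 678, 531 and 599 in IAT. The IAT libraries were the higher in adipocytes and the lower in SVCs, without overlap in either fraction. Its depot difference was 1.76 ± 0.13, adjusted p = 4.7e-07 in adipocytes and -0.80 ± 0.13, adjusted p = 3.2e-04 in SVCs, and the interaction was 2.56 ± 0.18, adjusted p = 4.3e-07 (log2 ± SE, here and below).

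Cxcl3 (chr5:90786101-90788093), a neighbour of Cxcl1 in the same chemokine cluster, did the same at a lower level, with 0.691, 0.448 and 0.572 FPKM in EAT adipocytes and 10.5, 5.83 and 8.11 in IAT adipocytes. SVCs held 5.64, 4.8 and 5.1 FPKM in EAT and 1.77, 0.589 and 0.741 in IAT. No library of one depot overlapped the other in either fraction, though EAT adipocytes and 2 of 3 IAT SVC libraries lay below 1 FPKM. The interaction was 4.16 ± 0.29, adjusted p = 3.0e-07, and 5.96 with a pseudocount of 0.1. Hcar2 (chr5:123863570-123865516), the adipocyte receptor for niacin and the ketone body β-hydroxybutyrate that lowers lipolysis, was a gene mainly of adipocytes. It stood at 26.9, 36.4 and 32.6 FPKM in EAT adipocytes and 133, 153 and 143 in IAT adipocytes. SVCs held 7.51, 7.46 and 8.05 FPKM in EAT and 1.84, 1.89 and 1.86 in IAT. IAT exceeded EAT in every adipocyte library and was below it in every SVC library, with an interaction of 3.73 ± 0.14, adjusted p = 1.1e-09.

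Nfil3 (chr13:52967209-52981039), a basic leucine zipper repressor with roles in immune cells and the circadian clock, stood at 18, 18.8 and 18.2 FPKM in EAT adipocytes and 48, 45.7 and 46.8 in IAT adipocytes. SVCs held 51.6, 48 and 52.4 FPKM in EAT and 30.6, 26 and 26.5 in IAT. It was low in EAT adipocytes and IAT SVCs and high in IAT adipocytes and EAT SVCs (interaction 2.16 ± 0.10, adjusted p = 1.1e-08). Egr2 (chr10:67537869-67542188), an immediate early zinc finger factor, stood at 28.9, 32.1 and 31.4 FPKM in EAT adipocytes and 58.1, 57.8 and 61.1 in IAT adipocytes. SVCs held 91.1, 94.9 and 89.9 FPKM in EAT and 42.4, 39.8 and 40.5 in IAT. EAT SVCs were the highest group and EAT adipocytes the lowest, and depots did not overlap in either fraction (interaction 2.07 ± 0.091, adjusted p = 5.0e-09). Rcan1, an inhibitor of the phosphatase calcineurin, went from 16.2 ± 0.821 FPKM in EAT to 31.3 ± 2.47 FPKM in IAT adipocytes (mean ± SD, n = 3) and from 58.6 ± 1.16 to 26.6 ± 4.71 FPKM in SVCs (interaction 2.03 ± 0.15, adjusted p = 6.7e-07). Anxa8, a calcium-dependent phospholipid binding protein, had means of 3.14 FPKM in EAT and 11.3 in IAT adipocytes against 7.1 in EAT and 1.29 in IAT SVCs (interaction 3.40 ± 0.13, adjusted p = 1.2e-09). Sox4, a transcription factor of many progenitor cells, stood lower, with means of 2.26 FPKM in EAT and 7.16 in IAT adipocytes against 8.63 in EAT and 4.8 in IAT SVCs (interaction 2.08 ± 0.27, adjusted p = 8.0e-05).

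The opposite order, lower in IAT in adipocytes and higher in IAT in SVCs, was found for 120 genes (1.82%, against 1.91% of all features tested). Tsc22d3 (chrX:140539529-140600522) encodes GILZ, a protein induced by glucocorticoids, and stood at 98.7, 68.2 and 63.3 FPKM in EAT adipocytes and 38.2, 37.9 and 36.8 in IAT adipocytes. SVCs held 48.7, 52.7 and 55.9 FPKM in EAT and 89.1, 140.2 and 108 in IAT. The depots were apart in both fractions, with EAT adipocyte replicate 1 the highest of its group and a wide spread among IAT SVCs (interaction -2.05 ± 0.24, adjusted p = 3.0e-05). Acta2 (chr19:34240336-34255373), smooth muscle actin of mural cells and myofibroblasts, stood at 34.9, 24.1 and 28.7 FPKM in EAT adipocytes and 17.2, 13.3 and 13.8 in IAT adipocytes. SVCs held 37.2, 38.9 and 36.8 FPKM in EAT and 96.1, 82.7 and 79.5 in IAT. IAT adipocytes were the lowest group and IAT SVCs the highest (interaction -2.10 ± 0.18, adjusted p = 2.2e-06).

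Ccl8 (chr11:82115185-82116799), a chemokine for monocytes, stood at 29.1, 11.2 and 16.4 FPKM in EAT adipocytes and 7.49, 6.78 and 7.75 in IAT adipocytes. SVCs held 126, 102 and 133 FPKM in EAT and 236, 227 and 209 in IAT. Depots did not overlap in either fraction, but EAT adipocyte replicate 1 was far above the other 2 of its group (interaction -2.06 ± 0.33, adjusted p = 4.8e-04). Sfrp5, a secreted inhibitor of Wnt ligands that adipocytes make, had means of 88.4 FPKM in EAT and 36.2 in IAT adipocytes against 0.364 in EAT and 7.61 in IAT SVCs. Its level in EAT SVCs was below 1 FPKM, so its fold there depends on the pseudocount: the interaction was -3.90 ± 0.19, adjusted p = 1.6e-08, and -5.34 with a pseudocount of 0.1. In IAT SVCs the 14 adipocyte genes were also summed higher than in EAT SVCs, as given above, and their part in the Sfrp5 value there was not tested.

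Calcium, cyclic nucleotide and membrane traffic genes were also in this set. Atp2a3, the SERCA3 calcium pump of the endoplasmic reticulum, had means of 12.5 FPKM in EAT and 3.49 in IAT adipocytes against 11.9 in EAT and 23.9 in IAT SVCs (interaction -2.53 ± 0.16, adjusted p = 1.2e-07). Ehd3, an ATPase of endosomal recycling, had means of 15.3 FPKM in EAT and 4.82 in IAT adipocytes against 2.97 in EAT and 8.62 in IAT SVCs (interaction -2.73 ± 0.22, adjusted p = 1.0e-06). Pde7a, a phosphodiesterase that degrades cyclic AMP, had means of 6.58 FPKM in EAT and 3.69 in IAT adipocytes against 3.38 in EAT and 6.3 in IAT SVCs (interaction -1.42 ± 0.13, adjusted p = 3.2e-06). Prdx6, a peroxidase, averaged 232 FPKM in EAT and 138 in IAT adipocytes against 36.3 in EAT and 58 in IAT SVCs (interaction -1.40 ± 0.17, adjusted p = 4.3e-05).

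**Figure D2:**
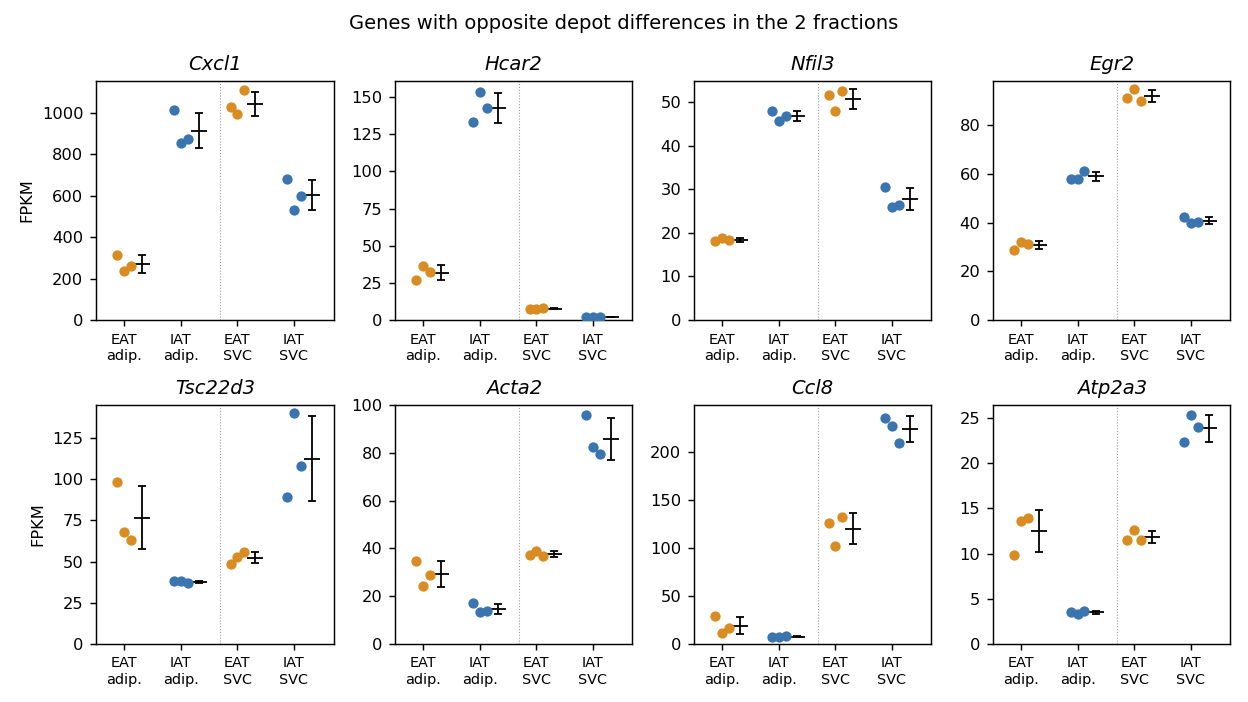
FPKM (linear axes from 0) of 8 genes in each of the 12 libraries, EAT in orange and IAT in blue; the bar beside each group of 3 points is the mean with the SD. In the upper row IAT is the higher depot in adipocytes and the lower in SVCs, in the lower row the reverse, and no depot pair overlaps.

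The genes with the largest positive interactions were led by one that differed between depots in both fractions. Upk3b (chr5:136038496-136044993), a uroplakin of the mesothelium, stood at 4.5, 7.29 and 7.22 FPKM in EAT adipocytes and 0.0216, 0.0518 and 0.038 in IAT adipocytes. SVCs held 159, 195 and 159 FPKM in EAT and 0.0373, 0.0456 and 0.0351 in IAT. All IAT libraries were near 0, and the value is set by the unequal EAT levels of the fractions (interaction 4.57 ± 0.19, adjusted p = 3.7e-09; 4.73 with a pseudocount of 0.1). Saa3, an acute phase protein, fell in IAT SVCs from 19.5 ± 3.87 to 0.676 ± 0.269 FPKM, while adipocytes overlapped at 14.2 ± 7.88 and 9.19 ± 0.746 FPKM (interaction 3.17 ± 0.42, adjusted p = 9.2e-05). Fgf1, a growth factor that adipose tissue needs to remodel under a rich diet, fell in both fractions of IAT but by unequal amounts, with means of 13.3 FPKM in EAT and 5.81 in IAT adipocytes against 50.9 in EAT and 2.79 in IAT SVCs (interaction 2.70 ± 0.10, adjusted p = 1.2e-09). Cish, a suppressor of cytokine signalling, had means of 4.75 FPKM in EAT and 23.6 in IAT adipocytes against 15.1 in EAT and 10.3 in IAT SVCs (interaction 2.67 ± 0.29, adjusted p = 1.9e-05).

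Among the most negative interactions were skeletal muscle genes, matrix genes and genes low in IAT adipocytes. Inmt (chr6:55170627-55174990), a methyltransferase of small amines, stood at 159.9, 179 and 148 FPKM in EAT adipocytes and 11.9, 9.77 and 10.2 in IAT adipocytes. SVCs held 322, 382 and 367 FPKM in EAT and 254, 233 and 205 in IAT. IAT adipocytes were the lowest group and far below the 3 others, while every SVC library was above 205 FPKM (interaction -3.18 ± 0.15, adjusted p = 1.2e-08). Gnb4, a G protein β subunit, stood at 21.3, 20.3 and 20.1 FPKM in EAT adipocytes and 3.01, 2.67 and 3.1 in IAT adipocytes. SVCs held 12.4, 12.6 and 13.6 FPKM in EAT and 12.6, 11.3 and 13 in IAT. Depots were apart in adipocytes and overlapped in SVCs (interaction -2.40 ± 0.10, adjusted p = 4.7e-09). Emilin2, a matrix glycoprotein, had means of 21.7 FPKM in EAT and 2.09 in IAT adipocytes against 80.1 in EAT and 59.5 in IAT SVCs (interaction -2.44 ± 0.15, adjusted p = 1.2e-07). Gramd3, a lipid-binding domain protein, had means of 8.36 FPKM in EAT and 5.76 in IAT adipocytes against 11.6 in EAT and 45.4 in IAT SVCs (interaction -2.33 ± 0.15, adjusted p = 1.9e-07).

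Mmp3, the matrix protease stromelysin, rose in IAT in both fractions, 77.3-fold in adipocytes and 82.8-fold in SVCs as ratios of mean FPKM. Its interaction of -3.10 ± 0.17, adjusted p = 4.7e-08 came to -1.17 with a pseudocount of 0.1, because EAT adipocytes held only 0.0807 FPKM. Acta1, skeletal muscle actin, rose in IAT SVCs from 0.623 ± 0.0734 to 24.3 ± 4.33 FPKM and overlapped in adipocytes, at 33.1 ± 3.49 and 24.8 ± 10.5 FPKM (interaction -4.43 ± 0.31, adjusted p = 3.8e-07). Myl1, a fast muscle myosin light chain, had means of 74.9 FPKM in EAT and 86.6 in IAT adipocytes against 1.49 in EAT and 16 in IAT SVCs (interaction -2.55 ± 0.16, adjusted p = 1.1e-07). The summed level of 10 fast muscle genes was 31 to 38.5 FPKM in EAT adipocytes, 17.9 to 39.5 in IAT adipocytes, 15.4 to 17.6 in EAT SVCs and 105 to 129 in IAT SVCs. Acta1 is 1 of the 10 genes and Myl1 is not. Most of the sum in adipocytes was Acta1 itself, at 36.7, 29.8 and 32.8 FPKM in EAT and 36.3, 15.8 and 22.3 in IAT adipocytes. Of the 10 genes, 4 averaged below 0.1 FPKM in EAT adipocytes and 3 in IAT adipocytes. The part of muscle RNA in the Acta1 and Myl1 values was not tested.

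Genes of mitochondrial fuel use stood higher in IAT adipocytes than in EAT adipocytes, with few differences called in SVCs. To be set beside this list and the later ones, 14.7% of all features tested had a positive and 17.8% a negative interaction. In adipocytes 10.3% of all features were higher and 27.3% lower in IAT. In SVCs 14.0% were higher and 26.2% lower. Of 17 fatty acid oxidation genes 12 were higher and 1 lower in IAT adipocytes, while in SVCs 1 was higher and 3 were lower. The interaction was positive for 10 and negative for 0, and the median depot difference was 0.34 in adipocytes and -0.079 in SVCs (over all 6605 genes, -0.11 and -0.054). The SVC median was 0.017 with median-of-ratios scaling, 0.0095 with quantile scaling and -0.18 with TPM. Acadl, which takes the first step of long-chain oxidation, stood at 137, 116 and 117 FPKM in EAT adipocytes and 185, 191 and 183 in IAT adipocytes. SVCs held 28.8, 28.6 and 32.2 FPKM in EAT and 29.1, 27.7 and 26.6 in IAT. Adipocyte libraries of the depots were apart and SVC libraries overlapped (interaction 0.69 ± 0.11, adjusted p = 4.7e-04). Acaa2, the thiolase of the last step, had means of 91.4 FPKM in EAT and 132 in IAT adipocytes against 55.4 in EAT and 43.6 in IAT SVCs (interaction 0.87 ± 0.11, adjusted p = 7.6e-05). Echs1, the enoyl-CoA hydratase, averaged 209.8 FPKM in EAT and 281 in IAT adipocytes against 23.6 in EAT and 22.1 in IAT SVCs (interaction 0.51 ± 0.11, adjusted p = 0.0029). Positive calls in this list ran from 8 to 15 over the settings tried, with 0 negative in each.

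The TCA cycle and pyruvate list had 10 positive and 0 negative calls among 19 genes, with medians of 0.31 in adipocytes, where 14 were higher in IAT, and 0.0082 in SVCs (-0.10 with TPM). Pdk4 (chr6:5483351-5496278), the kinase that shuts pyruvate dehydrogenase and spares glucose, stood at 15.5, 25.3 and 19.3 FPKM in EAT adipocytes and 75.5, 64.7 and 70.3 in IAT adipocytes. SVCs held 7.12, 6.48 and 7.38 FPKM in EAT and 6.05, 5.46 and 6.19 in IAT. IAT adipocytes were the highest group and the SVC groups did not overlap (interaction 1.99 ± 0.19, adjusted p = 5.7e-06). Cs, citrate synthase, had means of 172 FPKM in EAT and 227 in IAT adipocytes against 45.3 in EAT and 42.4 in IAT SVCs (interaction 0.50 ± 0.10, adjusted p = 0.0024). Suclg2, a subunit of succinyl-CoA ligase, had means of 20.5 FPKM in EAT and 27.3 in IAT adipocytes against 11.2 in EAT and 10.2 in IAT SVCs (interaction 0.52 ± 0.11, adjusted p = 0.00379). The call of Cs was lost with quantile scaling. The positive calls were 6 with quantile scaling and 16 without EAT adipocyte replicate 1.

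For oxidative phosphorylation 8 of 27 genes had a positive and 0 a negative interaction, with medians of 0.36 in adipocytes, where 14 were higher in IAT, and 0.055 in SVCs (-0.046 with TPM). The called share of 29.6% was near the 26.6% of the 6605 genes and the 32.5% of all features. All of these calls were positive, so 29.6% of the 27 genes had a positive interaction, against 14.7% of all features. Sdha, the catalytic subunit of complex II, had means of 175 FPKM in EAT and 228 in IAT adipocytes against 53 in EAT and 50.7 in IAT SVCs (interaction 0.44 ± 0.090, adjusted p = 0.00255). Cyc1, cytochrome c1 of complex III, had means of 154 FPKM in EAT and 226 in IAT adipocytes against 38.1 in EAT and 40.5 in IAT SVCs (interaction 0.47 ± 0.11, adjusted p = 0.00676). The calls of Sdha and Cyc1 were lost with quantile scaling. The count moved with the libraries, although no setting gave a negative call. It was 17 without EAT adipocyte replicate 1, 3 without EAT adipocyte replicate 3 or IAT SVC replicate 3, 4 without IAT adipocyte replicate 1, EAT SVC replicate 2 or IAT SVC replicate 2, and 5 without IAT adipocyte replicate 3, EAT SVC replicate 3 or IAT SVC replicate 1. Array weights gave 14, quantile scaling 5 and a replicate block within depot 4.

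Glycolysis genes differed in both fractions, with 7 of 14 higher in IAT adipocytes and 4 lower in IAT SVCs. Of the 14 genes 6 had a positive and 0 a negative interaction, and the medians were 0.24 in adipocytes and -0.21 in SVCs. Ldhb, the lactate dehydrogenase subunit that favours lactate use, was higher in IAT adipocytes (66.1 ± 7.88 to 86.6 ± 4.09 FPKM from EAT to IAT) and lower in IAT SVCs (27.5 ± 1.47 to 16.6 ± 1.14 FPKM), with an interaction of 1.09 ± 0.13, adjusted p = 2.8e-05. Eno1, an enolase, had means of 222 FPKM in EAT and 356 in IAT adipocytes against 119 in EAT and 100.2 in IAT SVCs (interaction 0.95 ± 0.20, adjusted p = 0.00264). Pkm, pyruvate kinase, had means of 173 FPKM in EAT and 228 in IAT adipocytes against 218 in EAT and 183 in IAT SVCs (interaction 0.65 ± 0.14, adjusted p = 0.00304). The positive calls were 10 without EAT adipocyte replicate 1 and with array weights.

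Insulin signalling genes were split, with 3 positive and 2 negative calls among 12. Hk2, the insulin-induced hexokinase, had means of 34.1 FPKM in EAT and 54.3 in IAT adipocytes against 17.1 in EAT and 9.19 in IAT SVCs (interaction 1.5 ± 0.15, adjusted p = 1.1e-05). Foxo1, the transcription factor that insulin inactivates, went the other way, at 16.1 FPKM in EAT and 9.64 in IAT adipocytes against 11.6 in EAT and 17.1 in IAT SVCs (interaction -1.21 ± 0.14, adjusted p = 2.3e-05). Both crossed, with all 3 tests called. Of 14 fatty acid and triglyceride synthesis genes 3 were positive and 4 negative. Acly, which makes cytosolic acetyl-CoA, had means of 174 FPKM in EAT and 231 in IAT adipocytes against 53.1 in EAT and 41.4 in IAT SVCs (interaction 0.76 ± 0.14, adjusted p = 0.00147). Dgat2, which makes triglyceride, averaged 1624 FPKM in EAT and 1073 in IAT adipocytes against 10.1 in EAT and 17.8 in IAT SVCs (interaction -1.36 ± 0.12, adjusted p = 2.6e-06). Lipolysis and its control had 3 positive and 4 negative calls among 11, led by Hcar2. Prkaca, a catalytic subunit of protein kinase A, was also positive, at 79.4 FPKM in EAT and 99 in IAT adipocytes against 20.7 in EAT and 19.3 in IAT SVCs (interaction 0.41 ± 0.088, adjusted p = 0.00364).

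Genes of adipocyte identity had mostly negative interactions, 10 of 15 against 1 positive, and the larger differences were in SVCs. Their median depot difference was -0.13 in adipocytes (0.011 with median-of-ratios scaling) and 0.67 in SVCs, where 12 of 15 were higher in IAT. Adipoq (chr16:23146536-23157968), adiponectin, stood at 4503, 3890.0 and 4056 FPKM in EAT adipocytes and 3307, 3709.8 and 3366 in IAT adipocytes. SVCs held 7.46, 7.64 and 6.44 FPKM in EAT and 23, 21.6 and 20.4 in IAT. The SVC level was 0.173% of the adipocyte level in EAT and 0.626% in IAT, and every IAT SVC library was above every EAT one (interaction -1.73 ± 0.13, adjusted p = 6.1e-07). Car3, carbonic anhydrase of adipocytes, showed the same, at 12309 FPKM in EAT and 11199 in IAT adipocytes against 41.7 in EAT and 129 in IAT SVCs (interaction -1.75 ± 0.12, adjusted p = 3.5e-07). Among 11 adipokines 7 were negative and 3 positive. Agt, angiotensinogen, was lower in IAT in both fractions and more so in adipocytes, at 224 FPKM in EAT and 24.7 in IAT adipocytes against 41.2 in EAT and 14.1 in IAT SVCs (interaction -1.68 ± 0.20, adjusted p = 4.4e-05). Adipocytes left in the SVC fraction and adipocyte genes made by SVCs cannot be told apart in these values.

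Chemokines and cytokines were split. Of 17, 6 had a positive and 7 a negative interaction, and 5 crossed. Cxcl10 (chr5:92346639-92348889), an interferon-induced chemokine for T cells, stood at 53.7, 42.4 and 45.5 FPKM in EAT adipocytes and 392, 310.5 and 331 in IAT adipocytes. SVCs held 75.9, 70.2 and 75.7 FPKM in EAT and 113, 60.9 and 80.1 in IAT. IAT adipocytes were the highest group, and the SVC depots overlapped (interaction 2.69 ± 0.25, adjusted p = 4.8e-06). Ccl11, eotaxin, had means of 13.2 FPKM in EAT and 31.2 in IAT adipocytes against 291 in EAT and 231 in IAT SVCs (interaction 1.52 ± 0.17, adjusted p = 1.8e-05). Il6, an inflammatory cytokine, averaged 4.3 FPKM in EAT and 15.3 in IAT adipocytes against 95.8 in EAT and 75 in IAT SVCs (interaction 1.96 ± 0.21, adjusted p = 1.8e-05). Ccl6, a chemokine of macrophages, was negative, at 39.8 FPKM in EAT and 7.44 in IAT adipocytes against 336 in EAT and 169 in IAT SVCs (interaction -1.30 ± 0.15, adjusted p = 2.3e-05).

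Promoters are shown for 4 genes with positive interactions, chosen after their values were seen, because chemokines and interferon-stimulated genes are known targets of interferon-activated factors and of NF-κB. They are the 250 bases before the RefSeq start site (GRCm38.p6), 5′ to 3′ on the gene's strand, with the motif in capitals. For Cxcl10 (chr5:92348890-92349139, minus strand) and Gbp2 (chr3:142620413-142620662, plus strand) the capitals mark a match to TTTCNNTTTC, the core of the interferon-stimulated response element, on either strand. For Cxcl1 (chr5:90890995-90891244, plus strand) and Cxcl3 (chr5:90785851-90786100, plus strand) they mark matches to GGGNNTTTCC, a common form of the NF-κB site, on either strand.
Cxcl10: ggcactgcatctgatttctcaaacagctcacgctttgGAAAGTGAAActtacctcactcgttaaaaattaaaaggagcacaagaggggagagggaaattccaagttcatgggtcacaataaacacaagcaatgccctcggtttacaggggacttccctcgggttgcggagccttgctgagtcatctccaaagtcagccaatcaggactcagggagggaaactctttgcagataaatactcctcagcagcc
Gbp2: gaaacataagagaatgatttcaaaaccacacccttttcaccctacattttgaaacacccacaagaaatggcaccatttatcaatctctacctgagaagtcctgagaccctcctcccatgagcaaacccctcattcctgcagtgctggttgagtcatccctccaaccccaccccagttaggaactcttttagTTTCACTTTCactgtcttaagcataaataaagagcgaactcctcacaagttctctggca
Cxcl1: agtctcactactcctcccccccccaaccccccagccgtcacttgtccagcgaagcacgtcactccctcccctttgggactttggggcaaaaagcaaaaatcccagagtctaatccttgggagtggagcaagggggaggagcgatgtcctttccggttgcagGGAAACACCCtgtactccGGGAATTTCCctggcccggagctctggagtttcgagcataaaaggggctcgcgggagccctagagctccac
Cxcl3: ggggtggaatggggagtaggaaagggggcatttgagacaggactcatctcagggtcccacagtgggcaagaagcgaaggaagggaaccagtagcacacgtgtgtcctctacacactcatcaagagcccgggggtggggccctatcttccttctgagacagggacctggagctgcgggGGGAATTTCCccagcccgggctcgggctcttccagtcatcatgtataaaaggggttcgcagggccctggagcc

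The interferon motif was found in the same window of 3.46% of 27025 genes with a promoter in the RefSeq table. Of the 6592 symbols of the contrast 5098 matched the table, and 3.18% of these held it. Of the 8 interferon-stimulated genes with a promoter 6 held it (Bst2, Gbp2, Gbp3, Ifit3, Isg15 and Stat2), of which Gbp2, Gbp3 and Stat2 had a positive interaction. The NF-κB motif stood in 1.65% of all genes and 1.80% of the genes of the contrast. In the chemokine list 4 of 11 genes held it (Ccl9, Csf1, Cxcl1 and Il6), of which Cxcl1 and Il6 had a positive interaction. In the MHC class I list 3 of 12 genes held the interferon motif and 2 of 12 the NF-κB motif. Of the 7 MHC class I genes with a positive interaction, 0 held the interferon motif and 1 the NF-κB motif. In the immediate early list 0 of 15 genes held either motif. The motifs can overlap, since both hold TTTC, and a match describes the sequence only.

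Genes that respond to interferon were higher in IAT in both fractions, 10 of 10 in adipocytes and 7 in SVCs. Of the 10, 5 had a positive and 0 a negative interaction, with medians of 1.0 in adipocytes and 0.59 in SVCs; with quantile scaling or a pseudocount of 5 there were 3 positive calls, and without EAT adipocyte replicate 1 there was 1 negative call. Gbp2 (chr3:142620663-142638008), a guanylate-binding GTPase of host defence, stood at 24.9, 22.2 and 26.2 FPKM in EAT adipocytes and 108, 72.8 and 91 in IAT adipocytes. SVCs held 45.5, 39.3 and 47.3 FPKM in EAT and 57.4, 40.1 and 49.7 in IAT. Adipocyte libraries were apart by depot and SVC libraries overlapped (interaction 1.69 ± 0.21, adjusted p = 5.4e-05). Irf7, a transcription factor of the type I response, had means of 7.54 FPKM in EAT and 23.6 in IAT adipocytes against 16.4 in EAT and 33.3 in IAT SVCs (interaction 0.56 ± 0.16, adjusted p = 0.0168), a call lost with quantile scaling and with a pseudocount of 5. Iigp1, an interferon-induced GTPase outside that list, had means of 9.07 FPKM in EAT and 98 in IAT adipocytes against 41.9 in EAT and 59.9 in IAT SVCs (interaction 2.81 ± 0.25, adjusted p = 3.1e-06).

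MHC class I genes were higher in IAT for 13 of 14 in each fraction, with 7 positive and 0 negative interaction calls and medians of 0.93 in adipocytes and 0.69 in SVCs; quantile scaling added 2 negative calls, and array weights, a pseudocount of 5 and leaving out EAT adipocyte replicate 1 or IAT adipocyte replicate 3 added 1 each. H2-Q10 had means of 3.23 FPKM in EAT and 113 in IAT adipocytes against 0.486 in EAT and 7.47 in IAT SVCs (interaction 2.24 ± 0.13, adjusted p = 5.4e-08; 1.37 with a pseudocount of 0.1). Psmb8, a subunit of the immunoproteasome, averaged 19.7 FPKM in EAT and 57.8 in IAT adipocytes against 56.6 in EAT and 87.4 in IAT SVCs (interaction 0.92 ± 0.20, adjusted p = 0.00348). H2-Q genes are near-identical copies, and their values are uncertain where reads could be split between them.

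Immediate early and stress genes, a list that tissue digestion can raise, had 11 positive and 0 negative calls among 18, with medians of 0.67 in adipocytes and 0.34 in SVCs. In adipocytes 14 were higher in IAT and 0 lower, and in SVCs 6 were higher and 4 lower. Socs3 (chr11:117966087-117969366), the feedback inhibitor of JAK and STAT signalling, stood at 44.8, 70.6 and 61.1 FPKM in EAT adipocytes and 338, 375 and 367 in IAT adipocytes. SVCs held 196, 236 and 208 FPKM in EAT and 306, 309.6 and 289 in IAT. EAT adipocytes were the lowest group and IAT adipocytes the highest (interaction 2.11 ± 0.19, adjusted p = 3.8e-06). Fosb, an immediate early subunit of AP-1, had means of 99.7 FPKM in EAT and 371 in IAT adipocytes against 441 in EAT and 621 in IAT SVCs (interaction 1.45 ± 0.27, adjusted p = 0.00132). Atf3, a stress-induced factor, had means of 52.9 FPKM in EAT and 96.7 in IAT adipocytes against 439 in EAT and 283 in IAT SVCs (interaction 1.49 ± 0.11, adjusted p = 7.2e-07). Ier3, an immediate early gene, was lower in IAT SVCs, at 724 ± 18.6 and 452 ± 44.4 FPKM, and not called between adipocytes, at 142 ± 25.1 and 163 ± 2.29 FPKM (interaction 0.90 ± 0.16, adjusted p = 0.00103). These genes include Egr2 of the crossing set, and the part of the digestion in any of these values was not tested.

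Among acute phase genes the larger median difference was in SVCs. Of 7 acute phase genes 5 were positive and 2 negative, with medians of 0.027 in adipocytes (-0.097 with quantile scaling) and -0.61 in SVCs. Hp, haptoglobin, had means of 4059.9 FPKM in EAT and 3281 in IAT adipocytes against 102 in EAT and 22.9 in IAT SVCs (interaction 1.83 ± 0.18, adjusted p = 8.7e-06). Cp, the ferroxidase ceruloplasmin, averaged 34.1 FPKM in EAT and 43.1 in IAT adipocytes against 82.7 in EAT and 24.1 in IAT SVCs (interaction 2.08 ± 0.17, adjusted p = 1.2e-06). Mt1, a metallothionein, crossed, at 1146 FPKM in EAT and 2154 in IAT adipocytes against 835 in EAT and 546 in IAT SVCs (interaction 1.57 ± 0.28, adjusted p = 0.00104). Iron handling had 4 positive and 3 negative calls among 10. Trf, transferrin, averaged 2124 FPKM in EAT and 1701 in IAT adipocytes against 493 in EAT and 166 in IAT SVCs (interaction 1.24 ± 0.12, adjusted p = 8.7e-06). Hmox1, heme oxygenase, averaged 152 FPKM in EAT and 253 in IAT adipocytes against 543 in EAT and 369 in IAT SVCs (interaction 1.30 ± 0.23, adjusted p = 8.2e-04). Mesothelial genes were summed at 906 to 1045 FPKM in EAT SVCs and 43.4 to 49.8 FPKM in IAT SVCs, over 14 genes, of which 5, Upk3b and Wt1 among them, lay below 0.1 FPKM in IAT SVCs. Whether these cells carry the acute phase transcripts was not tested.

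Macrophage genes were lower in IAT for 13 of 16 in each fraction, with 1 higher in SVCs. Of the 16, 10 had a negative and 2 a positive interaction, with medians of -1.79 in adipocytes and -0.63 in SVCs. Mrc1, the mannose receptor, stood at 11.9, 13.7 and 13.5 FPKM in EAT adipocytes and 2.2, 2.03 and 2.13 in IAT adipocytes. SVCs held 107, 99.4 and 104 FPKM in EAT and 56.9, 60.5 and 65.9 in IAT. Depots were apart in both fractions, and IAT adipocytes were the lowest group (interaction -1.42 ± 0.11, adjusted p = 6.5e-07). C1qa, a subunit of complement C1q made by macrophages, had means of 72.9 FPKM in EAT and 15 in IAT adipocytes against 527 in EAT and 387 in IAT SVCs (interaction -1.75 ± 0.22, adjusted p = 6.6e-05). Csf1r, the receptor that sustains macrophages, had means of 22.2 FPKM in EAT and 3.82 in IAT adipocytes against 209 in EAT and 107 in IAT SVCs (interaction -1.30 ± 0.18, adjusted p = 1.2e-04). Antigen-presenting MHC class II genes were lower in IAT for 6 of 6 in adipocytes and 2 of 6 in SVCs, with 5 negative and 0 positive interaction calls and medians of -1.44 and -0.30. H2-Aa, a class II α chain, had means of 158 FPKM in EAT and 54.1 in IAT adipocytes against 1717 in EAT and 1476 in IAT SVCs (interaction -1.32 ± 0.22, adjusted p = 5.6e-04). In all, 19 macrophage genes of no other list were summed at 570.5 to 721 FPKM in EAT and 136 to 179 FPKM in IAT adipocytes, against 5022 to 5270.1 and 2837 to 3114 FPKM in SVCs. The part of macrophages carried over into the adipocyte fraction was not tested.

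Complement genes were split too, with 5 positive and 7 negative calls among 15. C3 (chr17:57203967-57228136), the central component, crossed, at 43, 71.3 and 69 FPKM in EAT adipocytes and 146, 172 and 181 in IAT adipocytes. SVCs held 986, 1045 and 924 FPKM in EAT and 658, 571 and 645 in IAT. IAT was the higher depot in adipocytes and the lower in SVCs (interaction 2.12 ± 0.23, adjusted p = 1.9e-05). Cd55, which protects cells from complement and marks interstitial progenitors, crossed in the same sense, at 8.29 FPKM in EAT and 13 in IAT adipocytes against 63.9 in EAT and 30.7 in IAT SVCs (interaction 1.63 ± 0.12, adjusted p = 4.9e-07). The interstitial progenitor list as a whole was split, with 3 positive and 2 negative calls among 6 genes.

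Collagen and fibrillar matrix genes differed between depots in both fractions, with 7 higher and 4 lower in IAT adipocytes and 12 higher and 3 lower in IAT SVCs. Of the 17 genes 9 had a negative and 2 a positive interaction, with medians of 0.10 in adipocytes and 0.55 in SVCs. Col1a2, of the major fibrillar collagen, averaged 46.7 FPKM in EAT and 49 in IAT adipocytes against 401 in EAT and 880.5 in IAT SVCs (interaction -1.06 ± 0.11, adjusted p = 1.0e-05). Col5a3 averaged 92 FPKM in EAT and 77.3 in IAT adipocytes against 59.8 in EAT and 142 in IAT SVCs (interaction -1.48 ± 0.13, adjusted p = 2.7e-06). Col5a1 crossed, at 22.8 FPKM in EAT and 16.2 in IAT adipocytes against 59.2 in EAT and 87 in IAT SVCs (interaction -1.0 ± 0.15, adjusted p = 2.1e-04). Both positive calls crossed, higher in IAT adipocytes and lower in IAT SVCs. Loxl1, an enzyme of elastic fibre assembly, averaged 10.3 FPKM in EAT and 20.6 in IAT adipocytes against 97.4 in EAT and 73 in IAT SVCs (interaction 1.33 ± 0.15, adjusted p = 3.0e-05). Postn, periostin, averaged 9.54 FPKM in EAT and 14.9 in IAT adipocytes against 123 in EAT and 91.1 in IAT SVCs (interaction 1.01 ± 0.16, adjusted p = 3.3e-04). Dpt, dermatopontin of fibroblasts, was higher in IAT adipocytes alone, at 183 FPKM in EAT and 744 in IAT adipocytes against 608 in EAT and 599 in IAT SVCs (interaction 2.04 ± 0.15, adjusted p = 4.7e-07). Fibroblast and progenitor markers as a list were split, with 2 positive and 3 negative calls among 9 genes, Col1a2 among the negative ones.

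Ribosomal protein genes were higher in IAT SVCs, with 17 of 20 called, and 0 were called in adipocytes by limma. All 10 interaction calls were negative, and medians were 0.019 in adipocytes (-0.017 to 0.16 over the scalings) and 0.64 in SVCs. Rps6 stood at 383, 253 and 264 FPKM in EAT adipocytes and 307, 296 and 283 in IAT adipocytes. SVCs held 485, 486 and 529 FPKM in EAT and 866, 976 and 823 in IAT (interaction -0.82 ± 0.20, adjusted p = 0.00664). SVC libraries were apart by depot and adipocyte libraries overlapped. The count was 5 with median-of-ratios scaling and without IAT SVC replicate 2, and 6 with a replicate block within depot and without EAT SVC replicate 1 or 3 or any single IAT adipocyte replicate. T cell markers, summed over 14 genes, were higher in IAT in both fractions. They stood at 49.4 to 52.2 FPKM in EAT SVCs and 279 to 434 FPKM in IAT SVCs, against 1.35 to 1.98 and 4.35 to 4.99 FPKM in adipocytes. B cell markers were at 59.1 to 63.7 and 194 to 290.2 FPKM in EAT and IAT SVCs. Fibroblast sums (11495 to 11830.5 and 15434 to 16150 FPKM) and red blood cell sums (17200 to 22128.5 and 24938 to 30086 FPKM) were also higher in IAT SVCs. Macrophage and mesothelial sums were lower there. The part of any cell type in the ribosomal values was not tested.

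**Figure D3:**
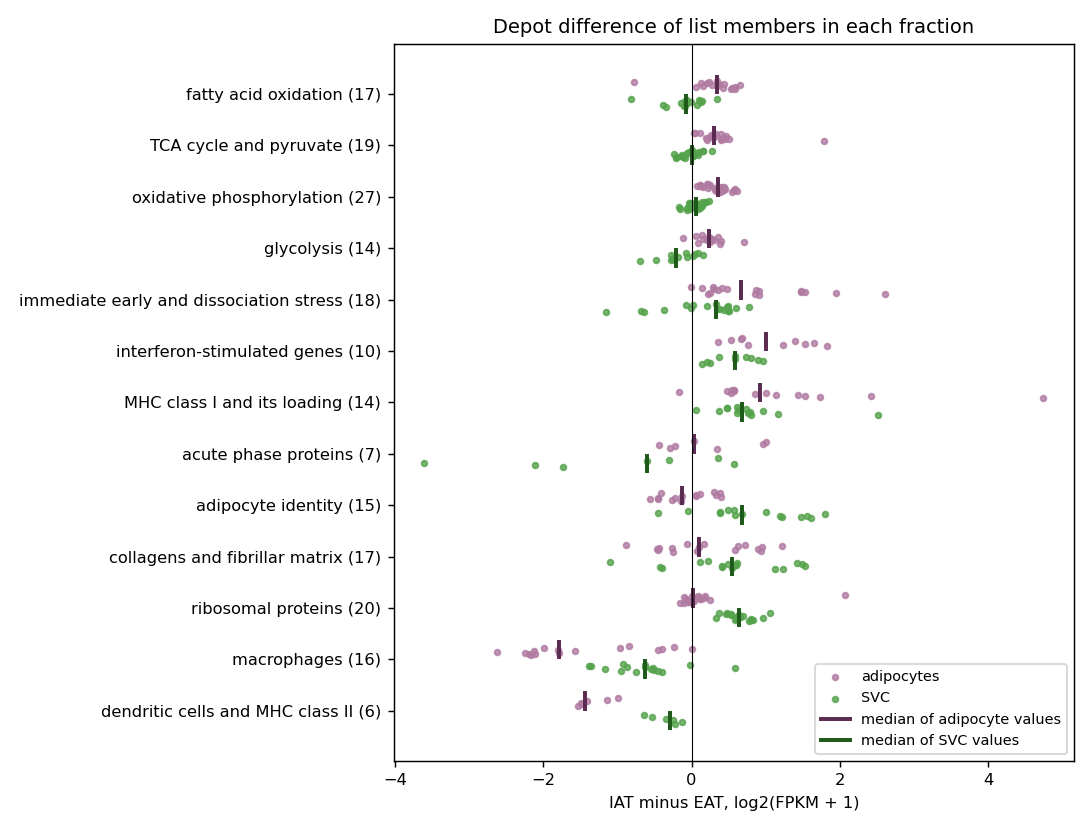
IAT minus EAT difference, on log2(FPKM + 1), of the genes of 13 lists (number of genes in parentheses) in adipocytes (purple) and SVCs (green), with the median of each as a bar. By their medians, fatty acid oxidation, TCA cycle and oxidative phosphorylation genes stand to the right in adipocytes and near 0 in SVCs. Glycolysis genes stand to the right in adipocytes and to the left in SVCs. Ribosomal genes are near 0 in adipocytes and to the right in SVCs, and macrophage genes are further to the left in adipocytes.

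Marker genes of other cell types were few among the genes measured well in both fractions. Of 15 listed mesothelial genes 3 reached 5 FPKM in both fractions, of which 1 was higher and 2 were lower in IAT adipocytes. All 3 were lower in IAT SVCs, and all 3 had a positive interaction, against 14.7% of all features. Mbp, myelin basic protein of Schwann cells, had a negative one and averaged 8.42 FPKM in EAT and 22.9 in IAT adipocytes against 11.4 in EAT and 76.3 in IAT SVCs (interaction -1.27 ± 0.19, adjusted p = 2.3e-04). Mural cell genes had 3 negative and 1 positive call among 6. Tagln, an actin-binding protein of smooth muscle, averaged 10.1 FPKM in EAT and 7.03 in IAT adipocytes against 63.1 in EAT and 142 in IAT SVCs (interaction -1.58 ± 0.25, adjusted p = 3.5e-04). Mylk, myosin light chain kinase, averaged 13.2 FPKM in EAT and 4.34 in IAT adipocytes against 11.4 in EAT and 12.5 in IAT SVCs (interaction -1.53 ± 0.13, adjusted p = 1.7e-06). Endothelial genes had 1 negative call among 14, that of Plvap, and 0 to 3 over the settings tried. There was no call with a pseudocount of 0.1 or 0.5, or without EAT SVC replicate 3, EAT adipocyte replicate 3, IAT SVC replicate 1 or IAT adipocyte replicate 2. No gene of the T cell, NK cell, lymph node stroma or epididymal epithelium lists reached 5 FPKM in both fractions.

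**Figure D4:**
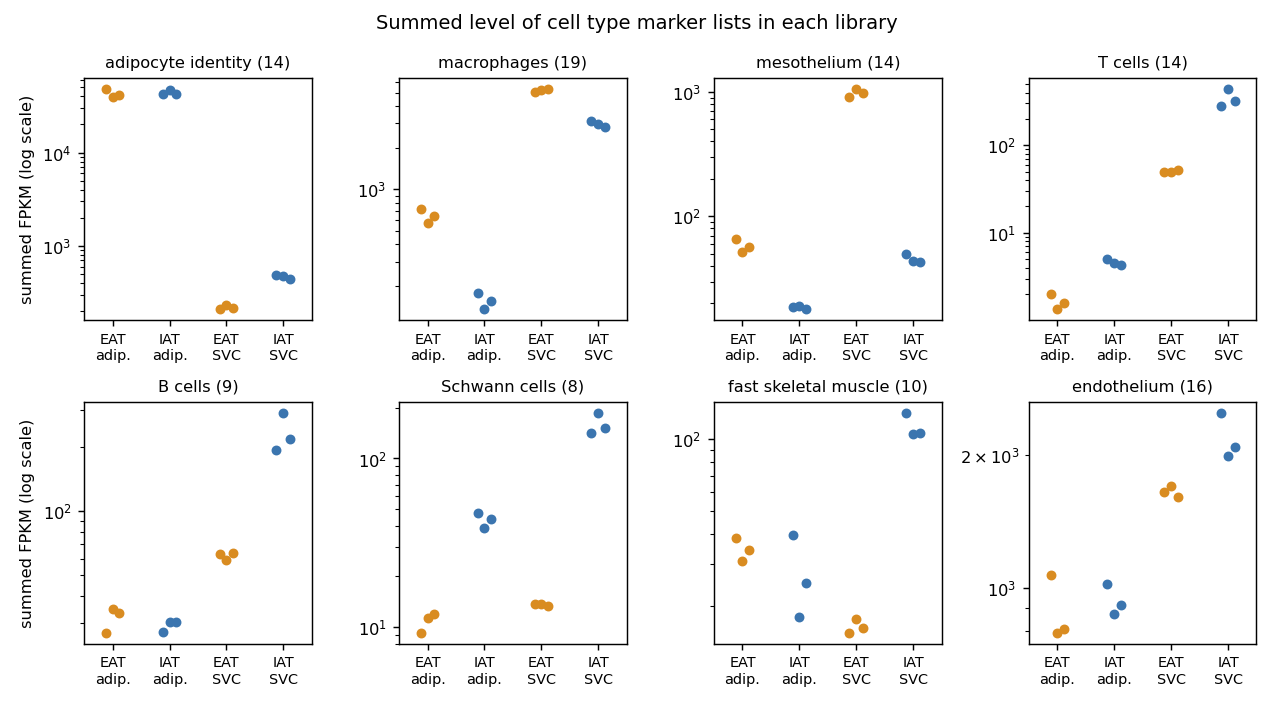
Summed FPKM (log axes) of the marker genes of 8 cell types, held by no other marker list (number in parentheses), in each of the 12 libraries, EAT in orange and IAT in blue. Mesothelial markers are highest in EAT SVCs, T cell, B cell, Schwann cell and muscle markers in IAT SVCs, and macrophage markers are lower in IAT in both fractions.

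Of 40 listed factors that mark body position, 11 were among the 6605 genes, and 5 of these had a positive and 2 a negative interaction. The number that crossed was 0 of 11. As 3.6% of the 6605 genes and 3.53% of all features crossed, that number does not set these factors apart. Hoxc10 averaged 0.217 FPKM in EAT and 17.2 in IAT adipocytes against 0.673 in EAT and 7.95 in IAT SVCs (interaction 1.48 ± 0.13, adjusted p = 3.1e-06). Tbx15 averaged 0.0325 FPKM in EAT and 6.17 in IAT adipocytes against 0.057 in EAT and 11.7 in IAT SVCs (interaction -0.80 ± 0.095, adjusted p = 3.9e-05). Both lay below 1 FPKM in EAT in each fraction, so their interactions depend on the pseudocount and came to 2.42 and -0.68 with 0.1. Gata6 was lower in IAT in both, at 9.63 FPKM in EAT and 5.43 in IAT adipocytes against 11.5 in EAT and 3.41 in IAT SVCs (interaction 0.78 ± 0.13, adjusted p = 6.3e-04).

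The genes above are set against 698 (10.6%, against 9.85% of all features tested) that differed between depots in both fractions in the same direction with no interaction called. Of these, 119 were higher (1.8%, against 1.93% of all features) and 579 lower in IAT (8.77%, against 7.92%). Col1a1, of the major fibrillar collagen, rose in IAT 2.38-fold in adipocytes and 2.68-fold in SVCs as ratios of means (interaction -0.21 ± 0.19, adjusted p = 0.438). Cxcl2, another CXCR2 ligand, was lower in IAT in both fractions, unlike Cxcl1 and Cxcl3, at 132 FPKM in EAT and 34.3 in IAT adipocytes against 821 in EAT and 255 in IAT SVCs (interaction -0.18 ± 0.34, adjusted p = 0.737). An interaction that missed the threshold does not show equal differences.

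The limit of 5 FPKM left out Zfp511, whose deciding group mean was 4.99997 FPKM and whose interaction was 0.055, and let in Gm13157, with a deciding mean of 5.002 FPKM and an interaction of -0.38.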

How the data were processed

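The deposited tables, 1 per library, hold gene values in FPKM with confidence bounds; the authors made them with TopHat and Cufflinks on GRCm38 (mm10), per the submitters' processing notes. The sources used here give no versions, read lengths, strand or annotation. The tables list 24890 features under 24358 symbols, of which 9 with a failed estimate in some library were left out. A linear model of 4 group means was computed on log2(FPKM + 1) for the 13175 features that reached 1 FPKM in 3 or more libraries (limma 3.58.1, eBayes with trend, in R 4.3.3). Tests were two-sided, with Benjamini-Hochberg adjusted p under 0.05 over all 13175 features as the call for each contrast. The files give no counts, so no count test was run, and fragment numbers were estimated from the bounds.

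The members, the 48 gene lists and the tests were chosen with earlier results of these data known. Genes named were the 10 largest interactions in each direction, 8 crossing genes in each orientation (by the smaller of their absolute depot differences), 6 shared genes in each direction, and up to 5 genes of each list with the smallest interaction p. Predicted, Rik and microRNA models were left out of the first 3 rankings. Some genes that the rule picks are not reported here. In simulated data of 13175 genes, changes of 0.5, 1 and 2 (log2) were given to 67, 67 and 66 genes, in IAT adipocytes alone. The interaction test called 38.8% of changes of 0.5, 85.1% of changes of 1 and 100% of changes of 2, with 7 false calls. In the data 32.5% of all features were called, so these rates cannot be carried over to the data. Tables and plots were made in Python 3.11.15 (pandas 2.3.3, NumPy 2.4.6, matplotlib 3.10.9). Alternatives were other pseudocounts, filters, scalings, member limits, array weights, eBayes without trend, leaving out each library and a replicate block. A further one kept only calls whose estimate was at least 2-fold.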

Additional observations from a re-analysis of the deposited data

Results flagged for a closer look

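Each result here passed limma's interaction test on log2(FPKM + 1), which compares the depot difference in adipocytes with that in SVCs. The counts were 1760 genes with an interaction and 238 genes with opposite depot differences. Positive interactions (log2) were 4.57 for Upk3b, 4.16 for Cxcl3, 3.73 for Hcar2, 3.40 for Anxa8, 3.17 for Saa3, 2.81 for Iigp1, 2.70 for Fgf1, 2.69 for Cxcl10 and 2.67 for Cish. Further positive ones among the crossing genes were 2.56 for Cxcl1, 2.16 for Nfil3, 2.08 for Sox4, 2.07 for Egr2 and 2.03 for Rcan1. Negative interactions were -4.43 for Acta1, -3.90 for Sfrp5, -3.18 for Inmt, -3.10 for Mmp3, -2.73 for Ehd3, -2.55 for Myl1, -2.53 for Atp2a3, -2.44 for Emilin2, -2.40 for Gnb4 and -2.33 for Gramd3. Among the crossing genes they were -2.10 for Acta2, -2.06 for Ccl8, -2.05 for Tsc22d3, -1.42 for Pde7a and -1.40 for Prdx6. Upk3b, Cxcl3, Saa3, Acta1, Sfrp5 and Mmp3 have a group mean below 1 FPKM, where the pseudocount enters the value. For Mmp3 the ratios of mean FPKM were close, 77.3 in adipocytes and 82.8 in SVCs, and the interaction came to -1.17 with a pseudocount of 0.1.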

How the results depend on the processing

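Members limited to 10 FPKM gave 1125 interaction calls, 1636 depot calls in adipocytes, 1527 in SVCs, 150 crossing genes and 954 calls among genes of like level, because fewer genes qualify. A 2-fold threshold gave 311, 278, 183, 5 crossing, 21 shared and 198 of like level. Array weights gave 1056 shared genes. Leaving out 1 library gave 1367 to 2480 interaction calls, 1865 to 3563 adipocyte and 1667 to 3142 SVC depot calls, 161 to 359 crossing, 534 to 1129 shared and 1120 to 2157 like-level calls. The highest count was without EAT adipocyte replicate 1 in each case. The cause was not tested. Of the 1760 calls, 74.5% (TPM) to 99.8% (no trend) stayed called in the same direction over the settings that keep the same genes. Among 211 genes chosen by the naming rule, 85 lost and 20 gained the interaction call in at least 1 setting. With a pseudocount of 5 the sign turned for Pi16 (-0.44) and Mmp2 (-0.17).

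Whether replicate numbers pair the libraries is not stated in the labels. Same-numbered libraries of different groups had deviations from their group means correlated at -0.295 to 0.486, with 7 of 18 pairs over 0.1. The highest value was that of EAT and IAT adipocyte replicate 3. Deviations within groups of 3 cannot decide whether libraries are paired. With the number as a replicate block there were 1663 interaction calls, 1625 of them among the 1760, and with a block within depot 1373, 1351 among the 1760. Near 5 FPKM the counting error is 8.78% to 11.2%. The simulated test missed most changes of 0.5, but far fewer genes were changed there than were called in the data.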

Other observations

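Insulin-like growth factor genes had 2 positive and 3 negative interactions among 9. Igf1 crossed, at 39.6 FPKM in EAT and 48 in IAT adipocytes against 34.6 in EAT and 18.7 in IAT SVCs (interaction 1.13 ± 0.091, adjusted p = 1.2e-06). Ghr, the growth hormone receptor, crossed the other way, at 561 FPKM in EAT and 425 in IAT adipocytes against 12.5 in EAT and 17.5 in IAT SVCs (interaction -0.86 ± 0.096, adjusted p = 2.3e-05). Of 14 TGF-β and BMP genes 3 were positive and 4 negative. Inhbb, the activin B subunit, averaged 9.71 FPKM in EAT and 12.9 in IAT adipocytes against 10.2 in EAT and 2.47 in IAT SVCs (interaction 2.07 ± 0.13, adjusted p = 1.1e-07). Smad7, an inhibitor of this pathway, crossed, at 19.5 FPKM in EAT and 12.1 in IAT adipocytes against 25.2 in EAT and 39 in IAT SVCs (interaction -1.25 ± 0.13, adjusted p = 1.6e-05). Wnt signalling had 1 positive and 3 negative calls among 7. Axin2, a feedback target of Wnt, crossed, at 9.92 FPKM in EAT and 3.2 in IAT adipocytes against 3.68 in EAT and 5.03 in IAT SVCs (interaction -1.73 ± 0.19, adjusted p = 1.9e-05).

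Bhlhe40, a repressor in the circadian clock, crossed, at 42.7 FPKM in EAT and 55.1 in IAT adipocytes against 106 in EAT and 58.7 in IAT SVCs (interaction 1.21 ± 0.15, adjusted p = 4.6e-05). In retinoid and steroid handling 3 of 5 genes were positive and 1 negative. Hsd11b1, which regenerates active glucocorticoid, was higher in IAT adipocytes and lower in IAT SVCs, at 107 FPKM in EAT and 139.5 in IAT adipocytes against 114 in EAT and 95.2 in IAT SVCs (interaction 0.64 ± 0.12, adjusted p = 0.00136).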
